A study of Homo sapiens with 36 samples.

Results

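The data described here are the light polysome fraction of MDA-MB-231 cells, a human triple-negative breast cancer line, with and without CRISPR interference (CRISPRi) against an isoleucine tRNA. The tested line, called GAUi, carried CRISPRi against the isoleucine tRNA with the GAU anticodon together with a control overexpression construct. The line it was set against, called control, carried CRISPRi against eGFP, a jellyfish protein gene that human cells lack, with the same kind of control overexpression construct. The libraries were chosen by their sample labels alone, 3 of GAUi and 3 of control, which makes 6 of the 36 libraries of the series. Cells of every line were exposed to 100 ug/mL cycloheximide for 5 minutes, which halts ribosomes on mRNA. The light fraction held the monosome and first polysome peaks, and the heavy fraction larger polysomes. Total RNA and heavy fractions of both lines are set beside it, as are the light fractions of the isoswitch line (CRISPRi against the GAU tRNA plus overexpression of the isoleucine tRNA with the UAU anticodon) and the UAU line (CRISPRi against eGFP plus that overexpression), with 3 libraries each. The labels do not say whether a line is a pool or a single clone, nor whether replicates A, B and C were grown separately. The p-values therefore speak only of the spread among these libraries, which may be technical.

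CRISPRi brings a catalytically dead Cas9 with a repressor domain to a gene and lowers its transcription. The GAU tRNA reads isoleucine codons AUC and, by wobble, AUU, which the AAU tRNA also serves, while the UAU tRNA reads AUA. An mRNA in the light part of a gradient carries few ribosomes. Its level there depends both on how much of the mRNA a cell holds and on where it runs in the gradient. The changes of the 12 highest and 12 lowest genes are therefore drawn beside those in total RNA and heavy polysomes. For other genes and lists these are given in part.

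The GAU tRNA itself was not read by these libraries, which sequence the 3′ ends of polyadenylated RNA. RefSeq (GRCh38.p14) lists 3 genes for it, all on chromosome X, between 3838377 and 3915303. The pseudogene LOC389906 (chromosome X, 3817535 to 3843894) spans 1 of them and had 16.8, 14.4 and 14.6 CPM (counts scaled to the size of the library) in GAUi A, B and C, against 15.1, 14.7 and 15.99 in control A, B and C. The groups overlapped (log2 fold change -0.00, SE 0.18, adjusted p = 0.999). This and every adjusted p that follows is from the quasi-likelihood test of edgeR, with Benjamini-Hochberg adjustment over all genes tested. PRKX, a protein kinase gene nearby, had 11.3, 13.3 and 10.6 CPM in GAUi, against 6.57, 10.3 and 9.31 in control (log2 fold change 0.43, SE 0.22, adjusted p = 0.307). IARS, the enzyme that charges isoleucine tRNAs in the cytosol, had 36.1, 36.7 and 40.3 CPM in GAUi, against 37.2, 23.7 and 35.3 in control (log2 fold change 0.23, SE 0.15, adjusted p = 0.435). None of these 3 passed the test, and control B was the lowest library for IARS.

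The GAUi light-fraction libraries held 5824048 to 8234332 counts and the control ones 5310594 to 5679683. Control B stood apart: across genes its log2 levels correlated with those of control A and C at Pearson's r of 0.972 and 0.975, while A and C correlated at 0.987 and the GAUi pairs at 0.988 to 0.989. The main results were therefore also computed without control B. An index of place in the gradient, the log2 ratio of summed CPM of 200 genes high in the light fraction to 200 high in the heavy one (genes chosen in UAU and isoswitch libraries), was 2.92, 2.86 and 2.85 in GAUi and 2.67, 2.61 and 2.84 in control. The GAUi values lay above the control ones, narrowly over control C (exact two-sided permutation test, p = 0.1, the smallest that 3 against 3 allows), and the part of this in the results was not tested. Of the 11 cell line markers, VIM lay between 867 and 1548 unscaled CPM and TWIST1 at or near 0. The 11 summed to 3437 to 3500 in GAUi and 4761 to 5682 in control. Most of that gap lay in S100A4, with means of 452 in GAUi and 1346 in control, VIM (924 and 1245) and CAV1 (631 and 947), a gene of chromosome 7, while AXL (390.1 and 406) and ZEB1 (143 and 133) were close. Luminal markers summed to 208 to 219 in GAUi and 184 to 221 in control, with CDH1 at 0 in all 6 libraries. Fibroblast, leukocyte and endothelial markers summed to at most 8.04 in any of them, with COL3A1, DCN, LUM, CD3E and CDH5 at 0.

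In the light fraction, 423 of 12445 genes tested passed an adjusted p under 0.05 (3.4%). Of these, 158 were higher (1.27%) and 265 lower (2.13%) in GAUi than in control, and 18 of the higher and 35 of the lower genes differed by at least 2-fold. Without control B, 760 of 12653 genes passed (6.01%), 368 higher (2.91%) and 392 lower (3.1%), and 366 genes passed both ways, 135 of them higher and 231 lower. The count was 177, 194 and 178 without GAUi A, B or C, and 274 without control C. It was 190 when the genes of chromosome 7 were left out. With them in, 158 higher and 117 lower calls were not placed on chromosome 7, so some of these were lost too. Of them, 2 higher and 4 lower were genes with no RefSeq match.

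The lower genes clustered on 1 chromosome. Of 589 tested genes on chromosome 7, 148 were lower in GAUi and 0 higher. This makes 25.1% called, against 2.32% of the genes not placed there, and 55.8% of all lower genes. At an unadjusted p under 0.05, 1 chromosome 7 gene was higher and 288 were lower, and DESeq2 called 1 higher and 160 lower. The median log2 fold change of the 589 genes was -0.36, a GAUi level 0.779 of the control level, and 524 of them (89.0%) were below 0. The medians of the 22 other chromosomes lay between -0.02 and 0.04. Without control B, 177 of 598 chromosome 7 genes were lower and 0 higher (290 and 4 at an unadjusted p under 0.05), with a median of -0.35. Chromosomes were compared after the values were seen.

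**Figure D1:**
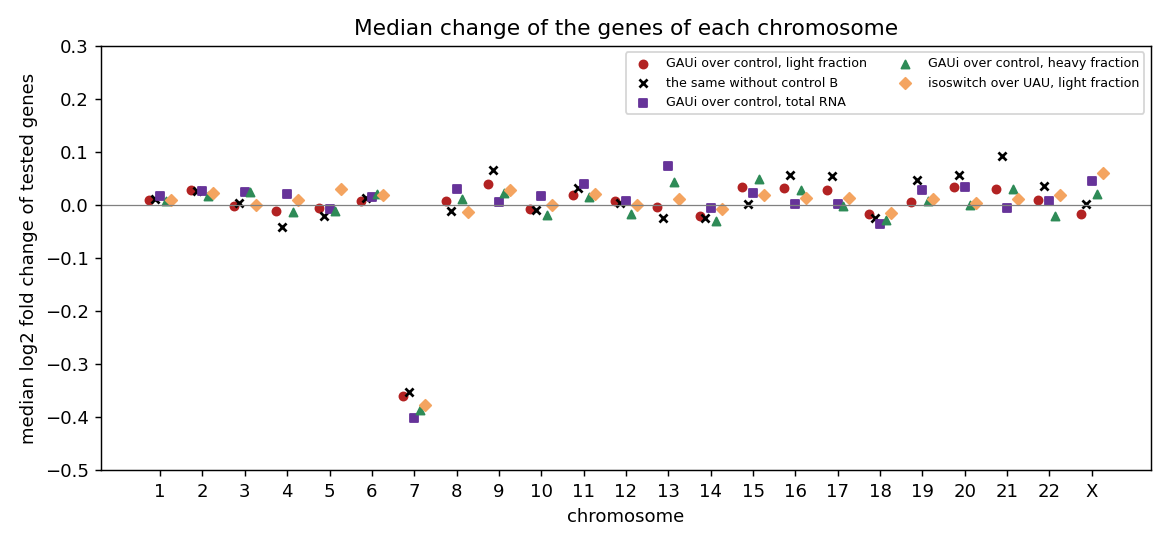
Median log2 fold change of the tested genes of each chromosome (x axis) for GAUi over control in the light fraction with and without control B, in total RNA and in the heavy fraction, and for isoswitch over UAU in the light fraction. Chromosome 7 lies between -0.40 and -0.35 in all 5, and every other chromosome between -0.04 and 0.09.

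Chromosome 7 was also low in libraries that this comparison did not use. In total RNA 240 of its 586 tested genes were lower in GAUi and 1 higher, with a median of -0.40. In the heavy fraction 245 of 568 were lower and 1 higher, with a median of -0.39. In the light fractions of isoswitch against UAU, which differ in the CRISPRi target, 144 of 589 were lower and 0 higher (315 and 2 at an unadjusted p under 0.05), with a median of -0.38. Between UAU and control, which share the eGFP target, 4 were higher and 2 lower, with a median of -0.00. The change in the light fraction minus that in total RNA had a median of 0.00 over 613 chromosome 7 genes, of which 2 were higher and 7 lower.

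Genes of chromosome 7 gave 2.95% to 3.00% of all counts in the 3 GAUi light-fraction libraries (mean 2.98 ± 0.0243, SD, n = 3), against 3.84% to 3.91% in the 3 control libraries (mean 3.87 ± 0.0388, SD, n = 3). The shares were 2.92% to 3.05% in isoswitch and 3.75% to 3.96% in UAU. All 6 light-fraction libraries with CRISPRi against the GAU tRNA lay below all 6 with CRISPRi against eGFP, control B included (GAUi against control: exact two-sided permutation test, p = 0.1, the smallest possible). The former come from GAUi and isoswitch and the latter from control and UAU, so they are not independent repeats of the CRISPRi. The ratio of the GAUi to the control mean was 0.769 in the light fraction, 0.741 in total RNA and 0.751 in the heavy fraction. In bulk RNA, a lower level in every cell and fewer cells with the full level cannot be told apart. DNA copy number was not tested.

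**Figure D2:**
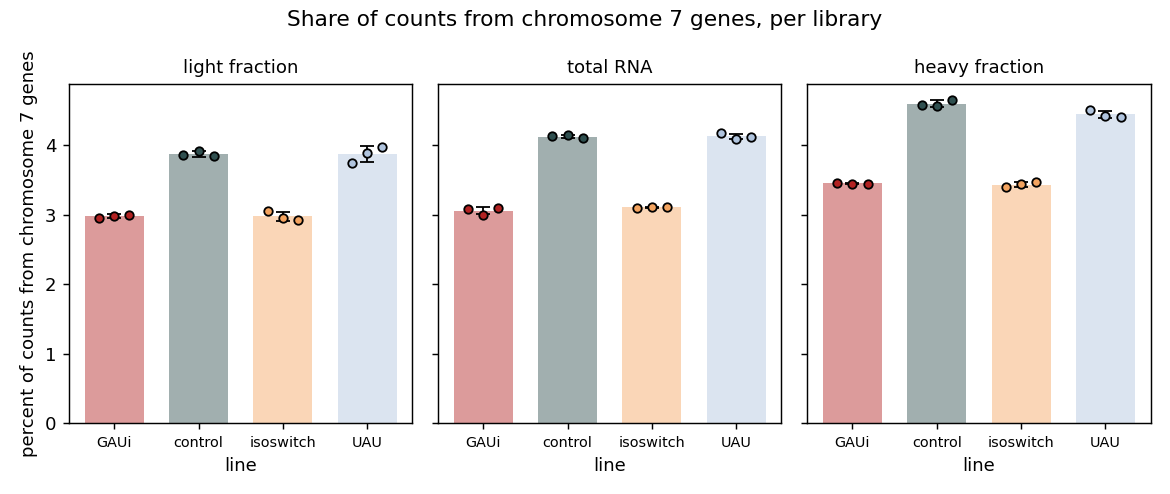
Percent of counts from the 1189 chromosome 7 genes per library (points), with the mean and SD over the 3 libraries of each line, in the light fraction, total RNA and heavy fraction. In each fraction the GAUi and isoswitch libraries lie below all control and UAU libraries.

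The low values ran along the whole chromosome. In 23 runs of neighbouring tested genes, 25 in each but the last, which held 39, the medians lay between -0.55 and -0.18, all 23 below 0. All 23 were also below 0 in total RNA (-0.50 to -0.29), in the heavy fraction (-0.62 to -0.22) and between isoswitch and UAU (-0.55 to -0.25). Of 456 such runs on other chromosomes, 2 were as low as the highest run of chromosome 7. One ran from HIST1H4C to HIST1H2AM, a histone gene cluster on chromosome 6 (median -0.29, -0.26 in total RNA, 0.10 in the heavy fraction and 0.08 between isoswitch and UAU). The other ran from PCDHGA1 to RELL2 on chromosome 5 (median -0.26, -0.16 in total RNA, -0.39 in the heavy fraction and -0.38 between isoswitch and UAU) and holds protocadherin genes that share their 3′ exons, so that 3′ reads cannot tell them apart.

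**Figure D3:**
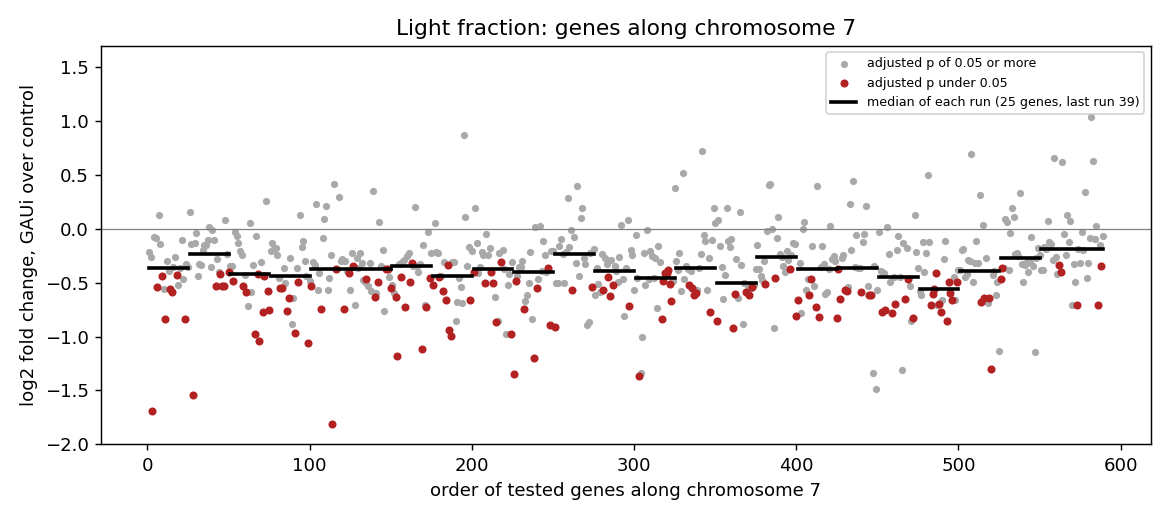
Log2 fold change of GAUi over control in the light fraction for the 589 tested genes of chromosome 7 in their order along it (points; red where the adjusted p is under 0.05), with the median of each run of 25 neighbours, or 39 in the last run (bars). The run medians lie between -0.55 and -0.18.

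The genes described next are the 12 lowest and 12 highest log2 fold changes among genes that passed with and without control B, averaged at least 3 in log2 CPM and did not overlap between the groups. The absence of overlap was thus a condition and not a result. Of the 12 lowest, 6 lie on chromosome 7. PRKAR1B, a regulatory subunit of protein kinase A, had 4.79, 4.77 and 3.06 CPM in GAUi A, B and C, against 15.9, 14.5 and 11.1 in control A, B and C (log2 fold change -1.69, SE 0.23, adjusted p = 0.00051). PON2, an intracellular lactonase, had 9.42, 11.01 and 9.70 in GAUi, against 26.5, 24.6 and 27.2 in control (log2 fold change -1.37, SE 0.14, adjusted p = 3.08e-05). CLDN4, a claudin of tight junctions, had 10.2, 11.7 and 10.6 in GAUi, against 27.4, 27.5 and 28.5 in control (log2 fold change -1.35, SE 0.13, adjusted p = 8.94e-06). The gap between the lines in these 3 follows from how the genes were chosen. GSTK1, a glutathione transferase, fell by 1.30 on the log2 scale (SE 0.20, adjusted p = 0.00109), the pseudogene STAG3L1 by 1.20 (SE 0.23, adjusted p = 0.00535) and SKAP2, an adaptor of Src-family kinases, by 1.06 (SE 0.21, adjusted p = 0.00678). STAG3L1 has close copies among which reads could be split, so its value is uncertain.

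PON2 and CLDN4 were also lower in the other libraries. The log2 fold changes of PON2 were -1.47 in total RNA and -2.15 in the heavy fraction, and those of CLDN4 -1.35 and -1.20, each past the threshold. Between isoswitch and UAU in the light fraction, PRKAR1B (-1.53), PON2 (-1.25), CLDN4 (-1.30) and STAG3L1 (-1.06) passed. GSTK1 (-0.55, adjusted p = 0.11) and SKAP2 (-0.67, adjusted p = 0.0766) did not.

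The other 6 lowest genes lie elsewhere. S100A4, a calcium-binding protein known for its part in cell motility and metastasis (GRCh38.p14, chromosome 1, 153543621 to 153545806), had 455, 484 and 418 CPM in GAUi A, B and C, against 1107, 1575 and 1338 in control A, B and C (log2 fold change -1.57, SE 0.13, adjusted p = 3.25e-06). Control B was its highest library. It was also lower in total RNA (-2.04), in the heavy fraction (-1.42) and in isoswitch against UAU (-1.27), all past the threshold. DDIT4, a stress-induced inhibitor of mTORC1, had 40.3, 40.01 and 36.4 in GAUi, against 77.7, 103 and 96.1 in control (log2 fold change -1.24, SE 0.11, adjusted p = 8.94e-06). DDIT4 was also lower in total RNA (-1.70) and heavy polysomes (-1.45).

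NINJ2, a cell adhesion protein, had 21.7, 17.9 and 16.7 CPM in GAUi, against 40.7, 41.8 and 48.1 in control (log2 fold change -1.22, SE 0.14, adjusted p = 7.19e-05). MT1F, a metallothionein that binds zinc and copper, had 7.19, 6.12 and 5.62 in GAUi, against 14.4, 13.8 and 15.99 in control (log2 fold change -1.22, SE 0.20, adjusted p = 0.00201). HSPA1B, an inducible Hsp70 chaperone, had 10.7, 7.95 and 10.2 in GAUi, against 28.3, 20.3 and 26.7 in control (log2 fold change -1.39, SE 0.16, adjusted p = 7.52e-05). Control B was the lowest control library for HSPA1B and MT1F. HSPA1B is nearly identical to HSPA1A, and metallothionein genes are also alike, so their reads may be mixed with those of their copies. Isoswitch against UAU gave -1.26 for NINJ2, -1.71 for MT1F and -2.0 for HSPA1B, each past the threshold.

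Interferon response genes, which interferons induce against viruses, had 5 of 29 tested members lower in GAUi and 0 higher (11 and 1 at an unadjusted p under 0.05; 5 and 0 by DESeq2), none of the 29 on chromosome 7. Without control B, 6 were lower. Over all genes tested, 2.13% were lower with all libraries and 3.1% without control B. The median of the 29 was -0.31, beside -0.00 over all genes tested. IFIT2, of a family of RNA-binding antiviral proteins, had 7.99, 8.32 and 9.19 CPM in GAUi, against 19.5, 18.8 and 20.7 in control (log2 fold change -1.21, SE 0.14, adjusted p = 7.67e-05). Its relative IFIT3 had 12.1, 8.81 and 11.6 in GAUi, against 22.4, 18.3 and 21.96 in control (log2 fold change -0.96, SE 0.17, adjusted p = 0.0029). IFIT1 had 5.59, 4.53 and 4.42 in GAUi, against 11.3, 7.78 and 10.4 in control (log2 fold change -1.02, SE 0.24, adjusted p = 0.0231). The groups did not overlap in these 3 genes, nor in any of the 423 called ones, and 22.9% of all genes tested did not overlap. Control B was the lowest control library for all 3. The other 2 are the antiviral membrane proteins IFITM2 (log2 fold change -0.52, SE 0.12, adjusted p = 0.0213) and IFITM3 (log2 fold change -0.46, SE 0.11, adjusted p = 0.0233), which are alike enough for reads to be split. IFITM3 was added after its values were seen, to complete the 5. The count of 5 became 3 without control A or C and 2 without GAUi A or C. When each of the 6 libraries was left out in turn, IFIT1 lost its call 5 times and IFITM2 3 times, while IFIT2 and IFIT3 kept theirs.

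The promoters of the lower interferon genes are shown because they hold the element that interferon-activated factors are known to bind. RefSeq promoters (GRCh38.p14, 300 bases each) were given for 3 of the 5 and are printed 5′ to 3′ along the gene, with matches to GAAANNGAAA on either strand in capitals. They are IFIT1 at chr10:89392373-89392672 (plus strand), IFIT3, by the first of its listed starts, at chr10:89327747-89328046 (plus strand) and IFITM3 at chr11:320811-321110 (minus strand).
IFIT1: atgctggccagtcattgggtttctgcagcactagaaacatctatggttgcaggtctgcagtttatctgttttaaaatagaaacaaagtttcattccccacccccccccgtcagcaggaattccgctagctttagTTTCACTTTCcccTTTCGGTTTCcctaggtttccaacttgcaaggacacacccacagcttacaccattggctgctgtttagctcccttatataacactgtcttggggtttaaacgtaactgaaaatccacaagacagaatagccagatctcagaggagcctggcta
IFIT3: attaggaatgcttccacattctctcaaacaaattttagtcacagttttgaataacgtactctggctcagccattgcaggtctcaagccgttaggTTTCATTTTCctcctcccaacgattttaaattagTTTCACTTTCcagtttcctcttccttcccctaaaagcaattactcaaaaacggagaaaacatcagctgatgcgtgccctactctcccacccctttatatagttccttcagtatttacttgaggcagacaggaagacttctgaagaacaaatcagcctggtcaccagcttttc
IFITM3: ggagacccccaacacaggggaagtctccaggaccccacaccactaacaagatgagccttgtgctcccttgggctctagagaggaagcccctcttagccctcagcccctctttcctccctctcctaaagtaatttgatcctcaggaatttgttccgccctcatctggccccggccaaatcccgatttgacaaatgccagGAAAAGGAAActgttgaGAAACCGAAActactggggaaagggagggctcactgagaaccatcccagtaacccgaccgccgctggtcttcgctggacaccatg
Each of the 3 windows holds 2 matches. Of all 27305 genes with a RefSeq promoter, 4.38% hold a match, and among the 22 tested interferon genes with a promoter 17 do (77.3%), most of which did not pass the test. A match describes the letters of the window and is not a bound site.

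IFIT2 was also lower in total RNA (-0.98) and heavy polysomes (-1.54), as were IFIT3 (-0.67 and -0.98) and IFIT1 (-0.74 and -0.96), all past the threshold. IFITM2 was higher in GAUi total RNA (0.34, adjusted p = 0.0428) and stood at 0.05 in the heavy fraction (adjusted p = 0.808). IFITM3 stood at 0.24 and 0.13 there (adjusted p = 0.0649 and 0.323). None of the 5 passed between isoswitch and UAU, where IFIT2 stood at -0.26 and IFIT3 at -0.04. In that comparison 2 of the 29 interferon genes were higher and 0 lower, beside 232 higher and 297 lower of all 12445 genes tested.

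**Figure D4:**
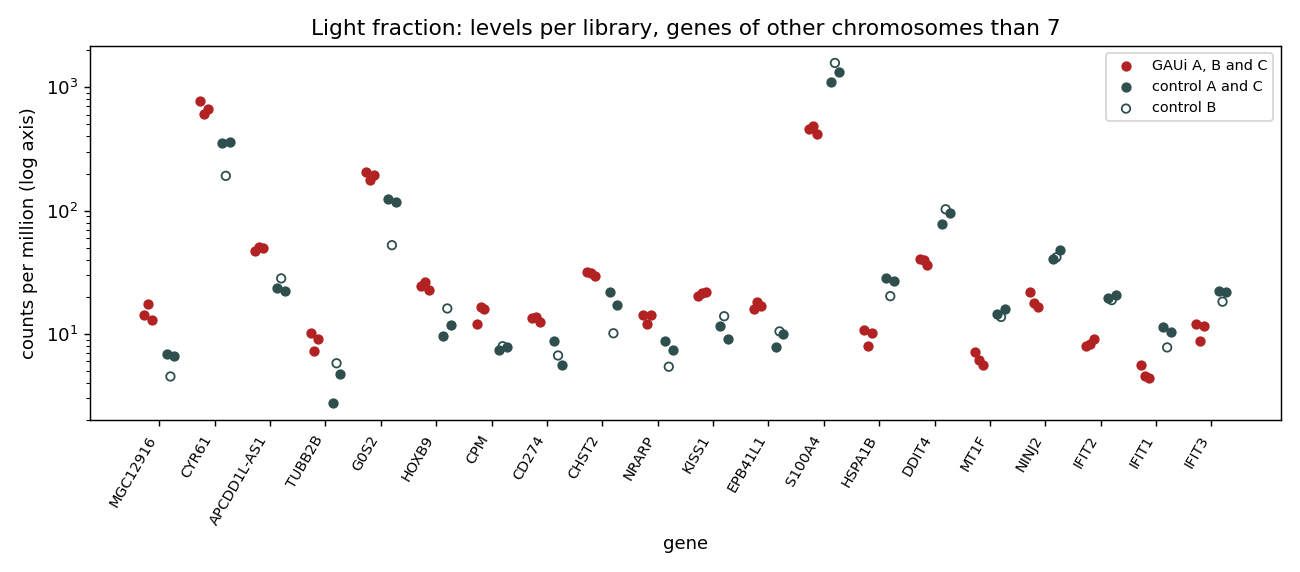
CPM (log axis) of the named genes outside chromosome 7 and of IFIT1 and IFIT3 in each light-fraction library, with GAUi left and control right of each gene and control B as an open circle. The groups do not overlap for any gene shown, and control B is the lowest library for CYR61, G0S2, CHST2 and MGC12916, among others not checked here.

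None of the 12 highest genes lies on chromosome 7. CYR61, a secreted matricellular protein that growth factor and YAP signalling induce (GRCh38.p14, chromosome 1, 85580761 to 85583950), had 775, 607 and 662 CPM in GAUi A, B and C, against 354, 191 and 361 in control A, B and C (log2 fold change 1.17, SE 0.20, adjusted p = 0.00224). G0S2, an inhibitor of triglyceride lipase, had 207, 177 and 194 in GAUi, against 123, 52.5 and 118 in control (log2 fold change 0.98, SE 0.19, adjusted p = 0.00668). CHST2, a sulfotransferase, had 31.9, 30.96 and 29.3 in GAUi, against 21.9, 10.1 and 17.04 in control (log2 fold change 0.91, SE 0.19, adjusted p = 0.00924). Control B was well below control A and C in all 3, and the log2 fold changes without it were 0.94, 0.68 and 0.67.

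CD274, the gene of PD-L1, through which tumour cells restrain T cells, had 13.6, 13.7 and 12.6 CPM in GAUi, against 8.76, 6.69 and 5.62 in control (log2 fold change 0.92, SE 0.18, adjusted p = 0.00578). The gene of carboxypeptidase M, whose symbol is also CPM, had 11.98, 16.5 and 15.8 in GAUi, against 7.48, 7.96 and 7.91 in control (log2 fold change 0.93, SE 0.17, adjusted p = 0.00371). HOXB9, a homeobox transcription factor, had 24.3, 26.6 and 22.6 in GAUi, against 9.67, 16.1 and 11.8 in control (log2 fold change 0.97, SE 0.18, adjusted p = 0.00399). For HOXB9 control B was the highest control library, and the log2 fold change without it was 1.20.

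The long non-coding RNA MGC12916 had 14.4, 17.4 and 13.1 CPM in GAUi, against 6.94, 4.52 and 6.68 in control (log2 fold change 1.31, SE 0.19, adjusted p = 0.000862). Its lowest library was control B. APCDD1L-AS1, an antisense RNA, had 46.96, 50.4 and 50.03 in GAUi, against 23.5, 28.2 and 22.1 in control (log2 fold change 1.00, SE 0.12, adjusted p = 0.000108). The strand setting of the counting is not given in the sources used here, so reads of APCDD1L-AS1 and of a partner gene cannot be told apart. KISS1, the precursor of kisspeptin and a metastasis suppressor gene, was higher by 0.88 (SE 0.19, adjusted p = 0.0152), and EPB41L1, a protein of the membrane skeleton, by 0.85 (SE 0.17, adjusted p = 0.00678). NRARP, a Notch target that limits Notch signalling, was higher by 0.91 (SE 0.21, adjusted p = 0.021) and the beta-tubulin TUBB2B by 0.99 (SE 0.27, adjusted p = 0.0477). Of the 24 genes, 20 kept their call when any 1 of the 6 libraries was left out. A call without control B was a condition of their choice, so that case was fixed in advance. TUBB2B lost its call in 5 of the 6 cases, KISS1 in 4, NRARP in 3 and SKAP2 in 1.

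Of the 12 lowest genes, 10 were also called lower in total RNA (10.1% of all genes were called there, in either direction), 11 in the heavy fraction (10.1%) and 8 between isoswitch and UAU (4.25%). Of the 12 highest, 5, 8 and 3 were called higher in those comparisons. The 3 were MGC12916, the carboxypeptidase gene CPM and EPB41L1, with log2 fold changes of 1.25, 0.72 and 0.65 between isoswitch and UAU. None of the 24 was called in the opposite direction in any of the 3 comparisons. TUBB2B (-0.41), NRARP (-0.09) and CYR61 (-0.05) were below 0 in total RNA and did not pass there.

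**Figure D5:**
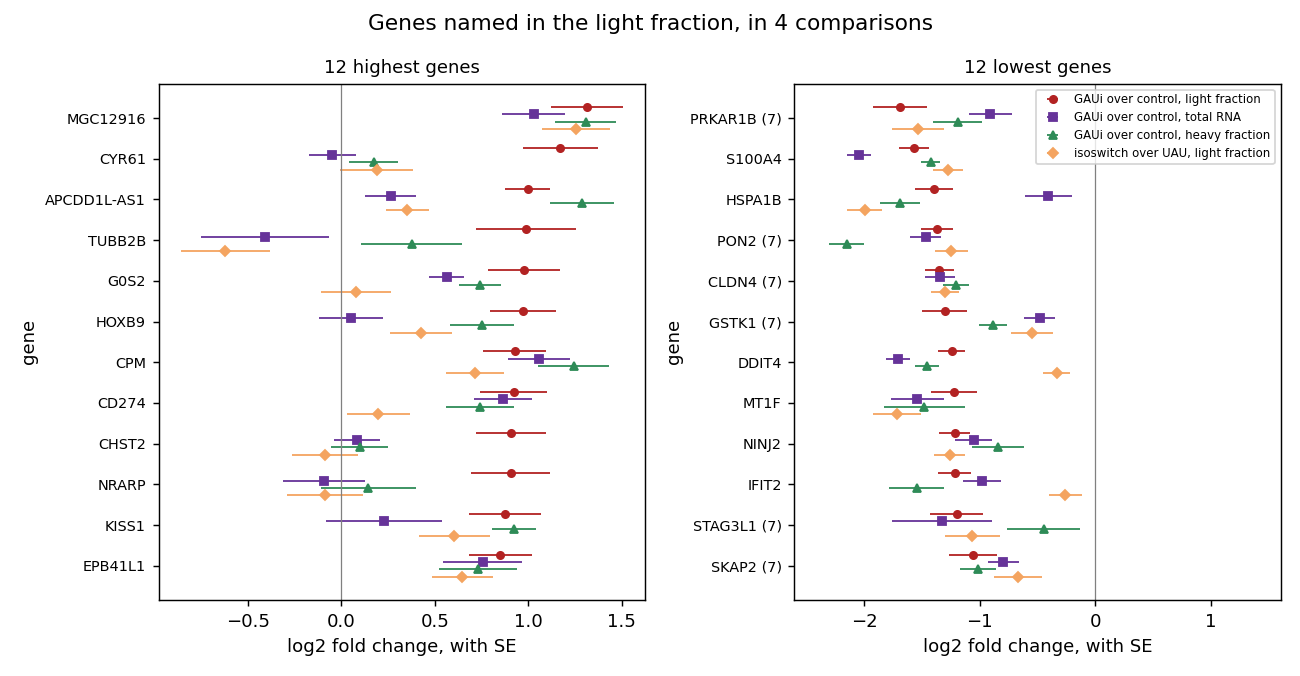
Log2 fold change with SE of the 12 highest (left) and 12 lowest (right) genes for GAUi over control in the light fraction, total RNA and heavy fraction and for isoswitch over UAU in the light fraction; (7) marks genes of chromosome 7. All 12 lowest genes lie below 0 in all 4 comparisons, while 9 of the 12 highest lie above 0 in total RNA and 9 between isoswitch and UAU.

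All 366 genes called with and without control B were set beside the light fractions of isoswitch and UAU, 6 libraries that did not enter the GAUi and control levels, though all 12 share one estimate of the spread. Of the 135 genes on chromosome 7, 131 had the same sign there (97.0%) and 74 were called with it. Of the 231 others, 193 had the same sign (83.5%), 61 were called with it and 2 with the opposite sign. The median absolute log2 fold change of the 231 was 0.26 between isoswitch and UAU, against 0.60 between GAUi and control, the comparison in which they were chosen.

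Many lower members of the other gene lists also lie on chromosome 7. The share of all genes tested that was lower in the light fraction was 2.13%. Cholesterol synthesis had 3 of 24 tested members lower and 0 higher (8 and 0 at an unadjusted p under 0.05; 3 and 0 by DESeq2). INSIG1 (-0.71, adjusted p = 0.00146), a brake on sterol synthesis, and the sterol demethylase CYP51A1 (-0.62, adjusted p = 0.00324) are on it, and the reductase DHCR7 (-0.61, adjusted p = 0.0393) is on chromosome 11. All 3 lower mitochondrial ribosomal proteins of 70, MRPS33 (-0.64), MRPS17 (-0.58) and MRPS24 (-0.37), are on chromosome 7. So are both lower DNA replication genes of 41, MCM7 (-0.55) of the replicative helicase and RPA3 (-0.58) of the single-strand binding complex. The lower proteasome subunit PSMA2 (-0.50), 1 of 31 tested, the lower histone gene H2AFV (-0.31), 1 of 17, and the small heat shock protein HSPB1 (-0.90), with HSPA1B 1 of 2 lower of 16 heat shock genes, are there too. The 66 mitochondrial ribosomal, 37 replication and 29 proteasome genes not placed on chromosome 7 had 0 calls in either direction, with medians of -0.04, 0.05 and -0.06. Without control B, 1 higher and 3 lower mitochondrial ribosomal, 1 higher replication and 1 lower proteasome gene were called among those not placed on chromosome 7. Over the whole lists, DESeq2 called 4, 2 and 1 lower and 0 higher, and 9, 5 and 4 were lower and 2, 1 and 2 higher at an unadjusted p under 0.05.

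The S100 family had 3 lower members of 10 tested, all on chromosome 1, beside 2.13% lower over all genes tested. Beside S100A4 these were S100A11, with 240.2, 285 and 270.4 CPM in GAUi, against 460.5, 332 and 362 in control (log2 fold change -0.54, SE 0.13, adjusted p = 0.0286), and S100A10 (log2 fold change -0.39, SE 0.10, adjusted p = 0.0445). Of the respiratory chain, 5 of 73 tested members were lower and 0 higher (19 and 0 at an unadjusted p under 0.05; 8 and 0 by DESeq2). ATP5J2 (-0.67) of ATP synthase and NDUFB2 (-0.68) of complex I are on chromosome 7, COX7B (-0.48) of cytochrome oxidase on X and NDUFA6 (-0.40) of complex I on 22. NDUFA4 (-0.82) matched more than 1 RefSeq entry and was given no chromosome, so it may also lie on chromosome 7. The median of the 71 members not placed on chromosome 7 was -0.12. In total RNA 5 of the 73 were higher and 2 lower in GAUi (median 0.12). In the heavy fraction 15 were higher and 3 lower (median 0.15). Over all genes tested, 541 were higher and 707 lower in total RNA, and 558 higher and 657 lower in the heavy fraction. Between isoswitch and UAU the list had 14 higher and 0 lower members, beside 232 higher and 297 lower of all 12445 genes tested. When each of the 6 libraries was left out in turn, S100A10, S100A11 and COX7B each lost their call in the light fraction 5 times.

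Among 32 invasion genes, 4 were lower, S100A4, CAV1 (-0.57) of caveolae, which is on chromosome 7, ITGB4 (-1.01), an integrin of hemidesmosomes, and the protease inhibitor TIMP1 (-0.57). The 2 higher ones were CYR61 and CDH11, a cadherin of mesenchymal cells (log2 fold change 2.09, SE 0.50, adjusted p = 0.0242), which was low in all libraries. Without control B, 2 were higher and 7 lower. Of all genes tested, 1.27% were higher and 2.13% lower with all libraries, and 2.91% and 3.1% without control B. CDH11, TIMP1 and NDUFA6 were named after their values were seen. Single members were higher in the lists of MAPK feedback (the phosphatase DUSP5, 0.53), hypoxia (the peptide hormone gene ADM, 0.56) and p53 targets (GADD45A, 0.46). In the epithelial list KRTAP2-3 (1.43) and CLDN7 (0.41) were higher and CLDN4 lower. CLDN7 lost its call in each of the 6 cases where 1 library was left out, and KRTAP2-3 in 4. Without control B, 1 member of this list was higher and 1 lower. SNHG11 (-0.74) of the snoRNA host and long non-coding RNAs, the mitotic regulators PTTG1 (-0.35) and AURKB (-0.35), and the mTORC1 activator RHEB (-0.33), on chromosome 7, were lower. Of 31 genes named from the lists, 11 kept their call when any 1 library was left out. ADM, SNHG11, PTTG1, AURKB, RHEB, DHCR7, MRPS24, PSMA2 and H2AFV each lost theirs in 5 of the 6 cases.

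Genes of the translation machinery gave no call in the light fraction with all 6 libraries, and a few without control B. Of 80 ribosomal protein genes 0 passed, with a median of -0.06 (1 higher and 12 lower at an unadjusted p under 0.05; 0 and 2 by DESeq2; 2 and 1 without control B). The same 80 had 26 higher and 3 lower members in total RNA and 47 higher and 0 lower in the heavy fraction. Among all 12357 genes tested in total RNA, 541 were higher and 707 lower. The heavy fraction had 558 higher and 657 lower of 11979. Of 41 translation factors 0 passed, with a median of 0.02 (5 higher and 2 lower at an unadjusted p under 0.05; 1 and 1 by DESeq2; 3 and 1 without control B). Of 20 aminoacyl-tRNA synthetases 0 passed, with a median of -0.00 (1 higher and 3 lower at an unadjusted p under 0.05; 1 and 0 by DESeq2; 2 and 0 without control B). DDIT4 was the 1 call among 26 genes of the integrated stress response (4 higher and 3 lower at an unadjusted p under 0.05; 1 and 1 by DESeq2; 2 and 2 without control B). Endoplasmic reticulum chaperones had 0 of 22 (3 higher and 2 lower at an unadjusted p under 0.05; 0 by DESeq2; 1 and 3 without control B).

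Whether a change in the light fraction differed from that in total RNA was tested in a fit of 24 libraries. Of 12840 genes, 168 passed (1.31%), 55 with a more positive and 113 with a more negative change in the light fraction. In total RNA, CYR61 had 913, 637 and 779.9 CPM in GAUi, against 832, 880.2 and 697 in control, which overlap. Its change in the light fraction exceeded that in total RNA by 1.19 on the log2 scale (SE 0.25, adjusted p = 0.0211). S100A11 had 375, 278 and 267 in GAUi total RNA, against 187, 211 and 206 in control, higher there and lower in the light fraction (difference -1.17, SE 0.18, adjusted p = 0.00468). Of the 113, 10 were ribosomal protein genes (80 tested) and 9 respiratory chain genes (73 tested). The list medians were -0.25 and -0.26, beside -0.02 over all genes. The count was 620 without light control B, 268 and 328 without total RNA GAUi A or C, 5 and 3 without total RNA control A or B, 24 without light control A, and 4, 91 and 35 without light GAUi A, B or C. With UAU and isoswitch left out of the fit it was 0 (1543 at an unadjusted p under 0.05), and DESeq2 on all 24 libraries called 401. Of the 11 genes named for this difference, S100A11 was the 1 that kept its call without any single library.

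Against heavy polysomes, 25 of 12749 genes passed (0.196%), all with a more negative change in the light fraction. HIST1H2AH, a replication-dependent histone gene, had 10.1, 11.01 and 12.6 CPM in GAUi light fractions, against 19.5, 20.4 and 21.96 in control ones. In heavy fractions it had 17.6, 19.6 and 21.7 in GAUi, against 14.8, 15.1 and 15.5 in control. The GAUi libraries were thus the lower ones in light and the higher ones in heavy polysomes, with no overlap in either (difference -1.27, SE 0.24, adjusted p = 0.0213). HIST2H2AC differed in the same direction (-0.91, SE 0.19, adjusted p = 0.0341). Most histone mRNAs of this kind lack a poly(A) tail, so these libraries read them in part. The count was 190 without light control B, 44 and 63 without light or heavy GAUi B, and 15 without heavy control A. It was 0 without GAUi A or C of either fraction or heavy control C, with 1260 to 1514 genes at an unadjusted p under 0.05, and DESeq2 on all 24 libraries called 274.

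Whether the CRISPRi effect depended on the overexpressed tRNA was asked by testing isoswitch over UAU minus GAUi over control. Each of these is a single line, so traits of a line cannot be told apart from effects of its constructs. Of 12445 genes 29 passed (0.233%), 18 with a more positive and 11 with a more negative effect in cells with the UAU tRNA. FTH1, the ferritin heavy chain, had 1541, 2002 and 1904 CPM in isoswitch, against 3607, 3317 and 2875 in UAU, and 2786, 2220.4 and 2332 in GAUi, against 1988, 1975 and 2196 in control. It was lower in every isoswitch than in every UAU library and higher in every GAUi than in every control library (difference -1.10, SE 0.17, adjusted p = 0.025). FTL, the light chain, differed by -1.10 (SE 0.19, adjusted p = 0.025). BEST1 (-0.91) overlaps FTH1 on the genome, so their reads may be mixed. DDIT4, at -1.24 between GAUi and control and -0.34 between isoswitch and UAU (adjusted p = 0.112), differed by 0.91 (SE 0.16, adjusted p = 0.025). FTH1, FTL, BEST1 and TNFSF12 are far more abundant in light than in heavy polysomes (log2 differences of 3.32 to 3.63 in UAU and isoswitch). The gradient index was 2.42, 2.65 and 2.58 in isoswitch and 3.04, 2.87 and 2.75 in UAU, lower in every isoswitch library, whereas GAUi lay above control, and the part of this in the result was not tested. The count was 167 without control B, 62 without UAU A, 17 without GAUi B, 11 without control C and 10 without isoswitch B. It was 0 without GAUi A or C, isoswitch A or C, or UAU B, with 1151 to 1408 genes at an unadjusted p under 0.05, and DESeq2 on all 12 libraries called 213.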

How the data were processed

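Polysome fractions and total RNA of 4 lines were sequenced as 3′ end libraries from 500 ng RNA each, per the labels' protocols. The deposited files hold raw gene counts, which the authors made with STAR and featureCounts on hg38, per the submitters' processing notes, which also name DESeq2. Neither versions nor the strand setting could be read from those notes.

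From the counts, the 12 libraries of each fraction were fitted together with edgeR 4.0.16 (R 4.3.3): filterByExpr, TMM scaling, quasi-likelihood test, Benjamini-Hochberg adjustment over all genes tested, called at an adjusted p under 0.05. Differences between fractions came from fits of 24 libraries. Levels are TMM-scaled CPM, and each SE was taken from the fold change and the F statistic. Alternatives were RLE scaling, no filter, DESeq2 1.42.0, the compared groups alone, a replicate block and each library left out. The fit was tested on simulated data.

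Of 12445 genes tested, 11458 matched RefSeq (GRCh38.p14) by symbol and 797 by synonym, and 190 did not match. Named genes were the 12 highest and 12 lowest by the conditions given with them, up to 4 called members of each of 28 gene lists by smallest p, the 5 highest and 5 lowest of each difference among genes averaging at least 3 in log2 CPM, and IARS, PRKX and LOC389906. Members and lists were chosen with earlier results of these data known. Counting error grows at low counts.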

Additional observations from a re-analysis of the deposited data

Results flagged for a closer look

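The results below passed a test of the difference itself, either between fractions in 1 fit of 24 libraries or between CRISPRi effects in 1 fit of 12, and are values with no explanation attached. Each difference is a log2 value with an adjusted p from edgeR's quasi-likelihood test.

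For GAUi over control in the light fraction minus the same in total RNA, the more positive genes were TTC8 (1.31, adjusted p = 0.0455), CYR61 (1.19, adjusted p = 0.0211), TRAIP (1.16, adjusted p = 0.0477), TERC (1.12, adjusted p = 0.048), MADD (1.10, adjusted p = 0.0228) and APCDD1L-AS1 (0.70, adjusted p = 0.0487). TERC, the telomerase RNA, had 24.8, 27.2 and 58.9 CPM in GAUi total RNA, against 83.7, 81.9 and 82.3 in control, with GAUi C apart from GAUi A and B. The more negative genes were C11orf91 (-1.19, adjusted p = 0.0132), S100A11 (-1.17, adjusted p = 0.00468), FTO (-1.12, adjusted p = 0.027), RNF39 (-1.11, adjusted p = 0.027) and TRAPPC1 (-1.06, adjusted p = 0.0268).

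For the light minus the heavy fraction the genes were HIST1H2AH (-1.27, adjusted p = 0.0213), C11orf91 (-1.11, adjusted p = 0.0341), HIST2H2AC (-0.91, adjusted p = 0.0341), DNPH1 (-0.83, adjusted p = 0.0213) and PTRHD1 (-0.81, adjusted p = 0.0213).

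For isoswitch over UAU minus GAUi over control, the more positive genes were PTGES (1.51, adjusted p = 0.0364), GEMIN6 (0.99, adjusted p = 0.041), NDUFS5 (0.94, adjusted p = 0.025), COX7B (0.93, adjusted p = 0.025) and DDIT4 (0.91, adjusted p = 0.025). PTGES, a prostaglandin E synthase, had 74.7, 50.1 and 63.2 CPM in isoswitch, against 25.6, 31.1 and 30.4 in UAU, and 42.6, 49.4 and 40.7 in GAUi, against 42.3, 86.1 and 47.96 in control, where control B was the highest. The more negative genes were TNFSF12 (-1.11, adjusted p = 0.025), FTH1 (-1.10, adjusted p = 0.025), FTL (-1.10, adjusted p = 0.025), BEST1 (-0.91, adjusted p = 0.0261) and RPLP0 (-0.86, adjusted p = 0.0411). Of these named genes, S100A11 in the first comparison alone kept its call without any single library.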

How the results depend on the processing

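No result reversed. In the light fraction the 423 genes became 743 with no filter on low counts, 271 with GAUi and control alone in the fit and 190 with chromosome 7 genes left out, an alternative chosen after seeing the data. Leaving out 1 library gave 177 to 760. RLE scaling (425) and DESeq2 (526) stayed within 1.5 times. Total RNA's 1248 became 329 with the 2 lines alone and 531 to 2134 without 1 library, and the heavy fraction's 1215 became 563 to 980. Isoswitch against UAU (529) gave 313 without chromosome 7 genes and 201 to 425 without 1 library.

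The differences depended most on the settings. Light minus total RNA (168) gave 453 with no filter, 401 by DESeq2, 0 with the 2 lines alone and 3 to 620 without 1 library. Light minus heavy (25) gave 44 with RLE scaling, 103 with no filter, 274 by DESeq2 and 0 to 190 without 1 library. The difference between CRISPRi effects (29) gave 251 with no filter, 213 by DESeq2 and 0 to 167 without 1 library. The cause of these changes was not tested.

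Replicate letters were not taken to pair the libraries. Deviations of same-letter GAUi and control libraries correlated at 0.0303 to 0.147, with 1 of 3 above 0.1, that of GAUi B with control B. Whether these 2 libraries share an effect was not tested. A fit with the letter as a replicate block gave 293 genes for the light fraction and 339 for isoswitch against UAU. For the difference between CRISPRi effects it gave 0 (1319 at an unadjusted p under 0.05). In the 2 differences between fractions the block was line and letter together, which pairs the fractions. That gave 24 for light minus total RNA and 0 (1314 at an unadjusted p under 0.05) for light minus heavy. Of 55 named genes called in the light fraction, 55 kept their call with RLE scaling, 54 with DESeq2, 53 with no filter and 43 with the 2 lines alone. The planned split by protein length and isoleucine share was not run, since no protein sequences were used here. Depth limits genes near 3 on the log2 scale, where 1 library can decide a call.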
